A study of Mus musculus with 6 samples.

Results

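Cartilage owes its stiffness, its smooth surface and its resistance to vessels to a matrix in which many proteins other than collagens take part, and 10 genes for such proteins were followed here in sorted mouse bone marrow stroma: Acan, Hapln1, Comp, Chad, Matn1, Matn3, Ucma, Cnmd, Prg4 and Cilp. They are 10 of the 19938 genes that the arrays measured with a probe set carrying a single gene symbol, and each of them has 1 such probe set. Cells from dissociated primary bone marrow that were negative for CD45 (leukocytes) and Ter119 (red cell precursors) and positive for CD73 had been sorted straight into lysis buffer by CD105, 3 samples as CD73+CD105- and 3 as CD73+CD105+ cells, and total RNA of each sample was hybridised to 1 array with a biotin label. No treatment other than dissociation and sorting, and no strain, age or genotype, is given in the labels, which call the samples biological replicates without saying whether they came from separate animals, so the tests measure the spread between these samples. The series as a whole concerns the engraftment of marrow stroma in stem cell transplantation.

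Chondrocytes embed themselves in a gel of aggrecan and hyaluronan held by a collagen network, and adaptor proteins tie the components together. The growth plate, where bones lengthen, and the articular surface, which bears the joint, are built by different chondrocytes with partly different matrix genes. The 10 genes were therefore read as articular genes (Prg4 and Cilp), growth plate genes (Matn1, Matn3, Ucma and Cnmd) and genes that both tissues use (Acan, Hapln1, Comp and Chad). Prg4 is also known from the synovial lining and from tendon, so the division is one of emphasis.

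Signals of the cartilage matrix genes were among the brightest on every array, in both populations. Of the 10, 7 were in the brightest 1% of genes (199 genes) on each of the 6 arrays, and the median percentile over the 10 was 99.7. All 10 lay on every array above 6.01, the level that 95% of 1194 olfactory and vomeronasal receptor genes, not thought to be used in marrow, stayed under (called the receptor level here). Chad, an integrin- and collagen-binding leucine-rich protein, ranked between 12 and 33 on the 6 arrays, Cnmd, the anti-angiogenic chondromodulin, between 13 and 32, and Prg4, the lubricant of joint surfaces, between 27 and 45. Comp, a thrombospondin-like adaptor, ranked between 25 and 53, and Ucma, a small secreted protein of resting chondrocytes, between 36 and 86. Aggrecan (Acan) ranked between 39 and 118 and its link protein Hapln1 between 93 and 158. The 3 genes outside the brightest 1% on at least 1 array were Matn3 (ranks 116 to 424), Cilp (1341 to 2088) and Matn1 (2467 to 4681). A rank describes the brightness of a probe set, which also depends on its probes, so these ranks are not an order of transcript amounts.

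**Figure D1:**
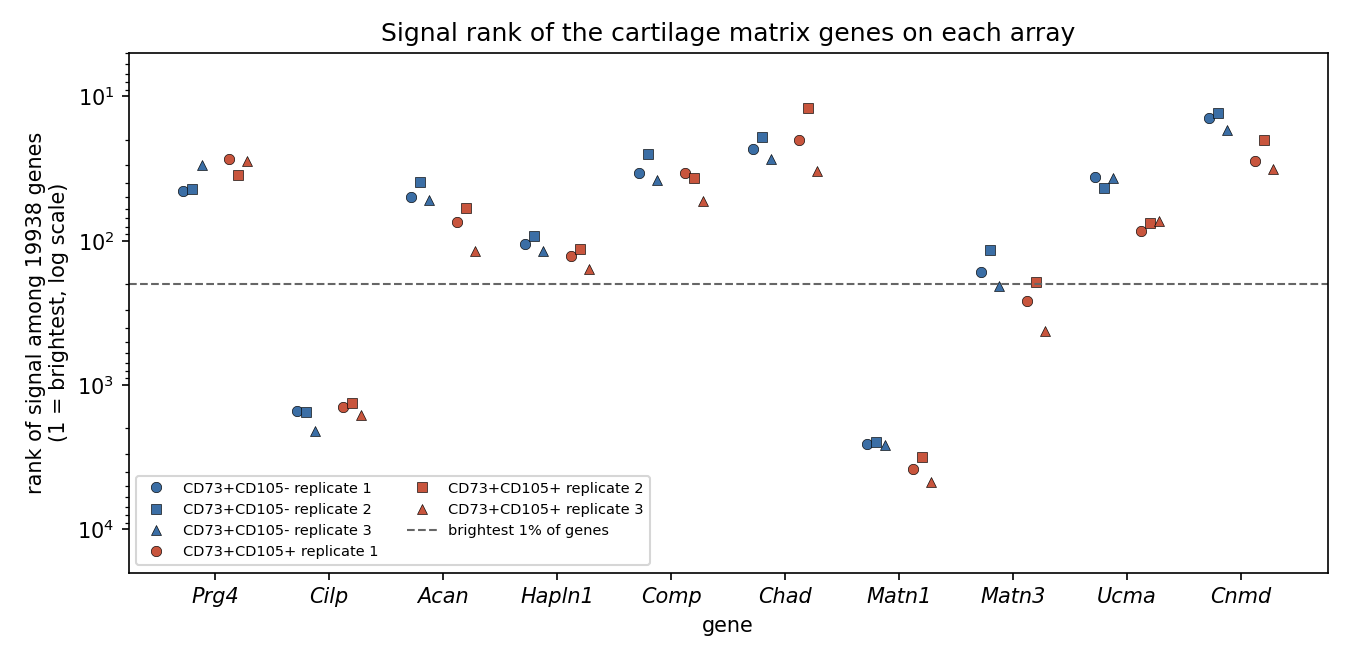
Rank of each gene's signal among 19938 genes on each of the 6 arrays (1 is the brightest, log axis), with CD73+CD105- samples in blue and CD73+CD105+ samples in red. Points above the dashed line are in the brightest 1%; Cilp and Matn1 lie below it on every array and Matn3 crosses it.

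The study's contrast is between the populations without and with CD105 (endoglin). In none of the 10 genes did the difference pass a Benjamini-Hochberg adjusted p of 0.05 over all genes in limma (0 higher and 0 lower), against 1.82% of all genes (1.35% higher and 0.466% lower in CD73+CD105+ cells). At an unadjusted p under 0.05 limma counted 3 of the 10, Matn1, Ucma and Matn3, all with lower means in CD73+CD105+ cells, against 17.7% of all genes, 9.09% in that direction. All 4 growth plate genes and all 4 shared genes had differences below 0, and both articular genes had differences above 0. Over all genes 55.6% of differences were below 0, and the median difference was -0.0202, against -0.11 for the 10. In bulk samples, fewer cells of a type and less RNA per cell cannot be told apart. Differences are given on the log2 scale with 95% intervals of the limma fit, and one above 0 means a higher level in CD73+CD105+ cells.

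**Figure D2:**
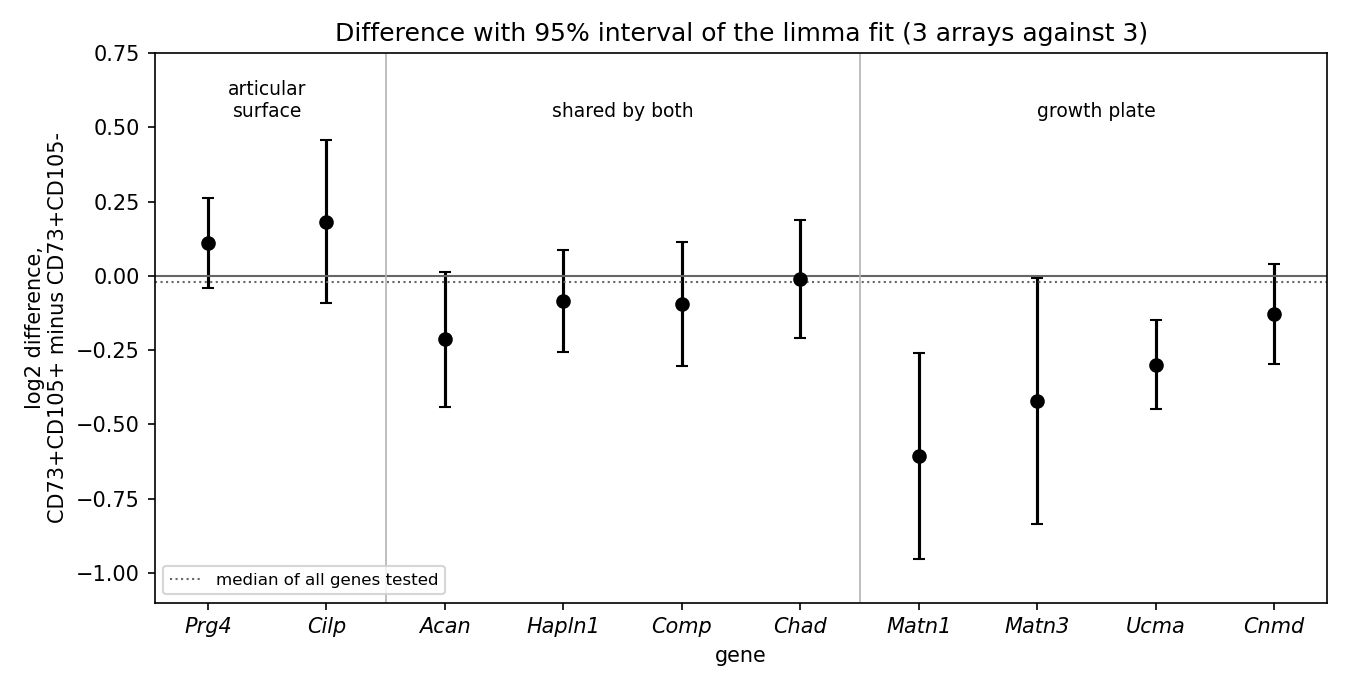
Difference of each gene between CD73+CD105+ and CD73+CD105- samples on the log2 scale, with the 95% interval of the limma fit (3 arrays against 3). The intervals of Matn1, Matn3 and Ucma lie below 0, those of the other 7 include 0, and none of the 10 passed the adjusted threshold.

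Matn1 had the largest difference among the 10 genes. It encodes matrilin-1, a filament-forming adaptor of growth plate and tracheal cartilage that adult articular cartilage is known to lack. On the log2 scale its level was 9.20, 9.33 and 9.27 in CD73+CD105- replicates 1, 2 and 3 and 8.70, 8.95 and 8.34 in CD73+CD105+ replicates 1, 2 and 3. The 3 CD73+CD105+ samples lay below the 3 CD73+CD105- samples, and their spread (SD 0.31, n = 3) was wider than that of CD73+CD105- samples (SD 0.064, n = 3). The difference was -0.61 (SE 0.15, 95% interval -0.95 to -0.26, limma adjusted p = 0.0963), or 1.52-fold lower. It was -0.44 without CD73+CD105+ replicate 3, -0.75 without CD73+CD105+ replicate 2 (adjusted p = 0.048) and -0.58 with array weights (adjusted p = 0.0379); the adjusted p over all alternatives ran from 0.0379 to 0.444.

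Matn3 encodes matrilin-3, a second adaptor of the same family that binds COMP and collagens. Its level was 12.05, 12.27 and 11.91 in CD73+CD105- replicates 1 to 3 and 11.72, 11.96 and 11.29 in CD73+CD105+ replicates 1 to 3. The groups overlapped, since CD73+CD105+ replicate 2 lay above CD73+CD105- replicate 3. The difference was -0.42 (SE 0.18, interval -0.84 to -0.0057, adjusted p = 0.277). It was -0.24 without CD73+CD105+ replicate 3 (unadjusted p = 0.127 in limma) and -0.32 without CD73+CD105- replicate 2 (0.142). Without CD73+CD105+ replicate 2 it was -0.57 (unadjusted p = 0.0108 in limma). The limma adjusted p over all alternatives ran from 0.126 to 0.628.

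Ucma had the smallest SD of the 10 genes in CD73+CD105- samples. Its level was 12.78, 12.76 and 12.77 in CD73+CD105- replicates 1 to 3 (SD 0.010, n = 3) and 12.41, 12.49 and 12.50 in CD73+CD105+ replicates 1 to 3 (SD 0.048, n = 3). The groups did not overlap, and the difference was -0.30 (SE 0.064, interval -0.45 to -0.15, limma adjusted p = 0.0704), 1.23-fold lower. Ucma passed in limma when the variance was modelled on the level (adjusted p = 0.00557) and with array weights (0.0254); its adjusted p over all alternatives ran from 0.00557 to 0.493. Over the probe sets, the mean of the replicate 1 arrays differed from that of the remaining arrays with an SD of 0.0627 log2, against at least 0.202 for any other pairing of arrays across the groups. The labels name no batch and do not describe this near balance, and the fit used here makes no allowance for it. With a term for those arrays as a batch, the calls over all genes went from 363 to 101, so p-values in the text were smaller than with that term, and the adjusted p was 0.225 for Ucma and 0.214 for Matn1. In replicate 1 alone the difference was -0.36 for Ucma and -0.50 for Matn1, and in replicates 2 and 3 it was -0.27 and -0.66.

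Cnmd, a membrane-anchored glycoprotein of avascular cartilage whose released part inhibits vessel growth, stood at 13.003, 13.05 and 12.97 in CD73+CD105- replicates 1 to 3. In CD73+CD105+ replicates 1 to 3 it stood at 12.87, 12.96 and 12.80. The groups did not overlap but nearly touched (12.970 in CD73+CD105- replicate 3, 12.961 in CD73+CD105+ replicate 2), and the difference of -0.13 (SE 0.071, interval -0.30 to 0.038, adjusted p = 0.399) did not pass.

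Aggrecan carries the chondroitin sulfate chains that hold water in cartilage. Acan was at 12.65, 12.77 and 12.61 in CD73+CD105- replicates 1 to 3 and at 12.50, 12.59 and 12.29 in CD73+CD105+ replicates 1 to 3, with no overlap. The difference was -0.21 (SE 0.097, interval -0.44 to 0.013, adjusted p = 0.309). Hapln1, which locks aggrecan onto hyaluronan, lay between 12.23 and 12.38 in the CD73+CD105- samples and between 12.14 and 12.26 in the others. The groups overlapped, with a difference of -0.085 (interval -0.26 to 0.086, adjusted p = 0.595). Comp, between 12.76 and 12.94 and between 12.60 and 12.81 in the same order, also overlapped (difference -0.095, interval -0.30 to 0.12, adjusted p = 0.631).

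Chad showed the smallest difference. It was at 12.93, 13.02 and 12.85 in CD73+CD105- replicates 1 to 3 and at 12.95, 13.01 and 12.80 in CD73+CD105+ replicates 1 to 3, so the groups covered nearly the same range. Its difference was -0.011 (SE 0.084, interval -0.21 to 0.19, adjusted p = 0.965), and its sign turned when the arrays were quantile normalized again and when either CD73+CD105- replicate 2 or, in the other group, replicate 3 was left out. The interval runs from 0.865 to 1.14 times the CD73+CD105- signal. The brightest gene of each array stood between 13.39 and 13.42, not far above Chad. How fully signals so near the top follow RNA amounts was not tested.

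The articular genes lay on the other side of 0. Prg4 encodes lubricin, the mucin-like glycoprotein of the joint surface. It was at 12.72, 12.75 and 12.81 in CD73+CD105- replicates 1 to 3 and at 12.88, 12.84 and 12.90 in CD73+CD105+ replicates 1 to 3. Every CD73+CD105+ sample lay above every CD73+CD105- sample, but the difference was 0.11 (SE 0.065, interval -0.042 to 0.26, adjusted p = 0.429), 1.08-fold. Cilp, a matrix protein of the middle zone of articular cartilage, was at 9.92, 9.95 and 9.60 in CD73+CD105- replicates 1 to 3 and 10.06, 10.09 and 9.87 in the CD73+CD105+ ones. Those groups overlapped, with a difference of 0.18 (SE 0.12, interval -0.091 to 0.46, adjusted p = 0.464), which was 0.070 without CD73+CD105- replicate 3.

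Separation of the groups was counted beside the tests. Of the 10 genes 4 (Acan, Matn1, Ucma and Cnmd) had all CD73+CD105+ samples below all CD73+CD105- samples and 1 (Prg4) had them all above. Over all genes 23.7% were separated, 12.9% downward and 10.7% upward.

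**Figure D3:**
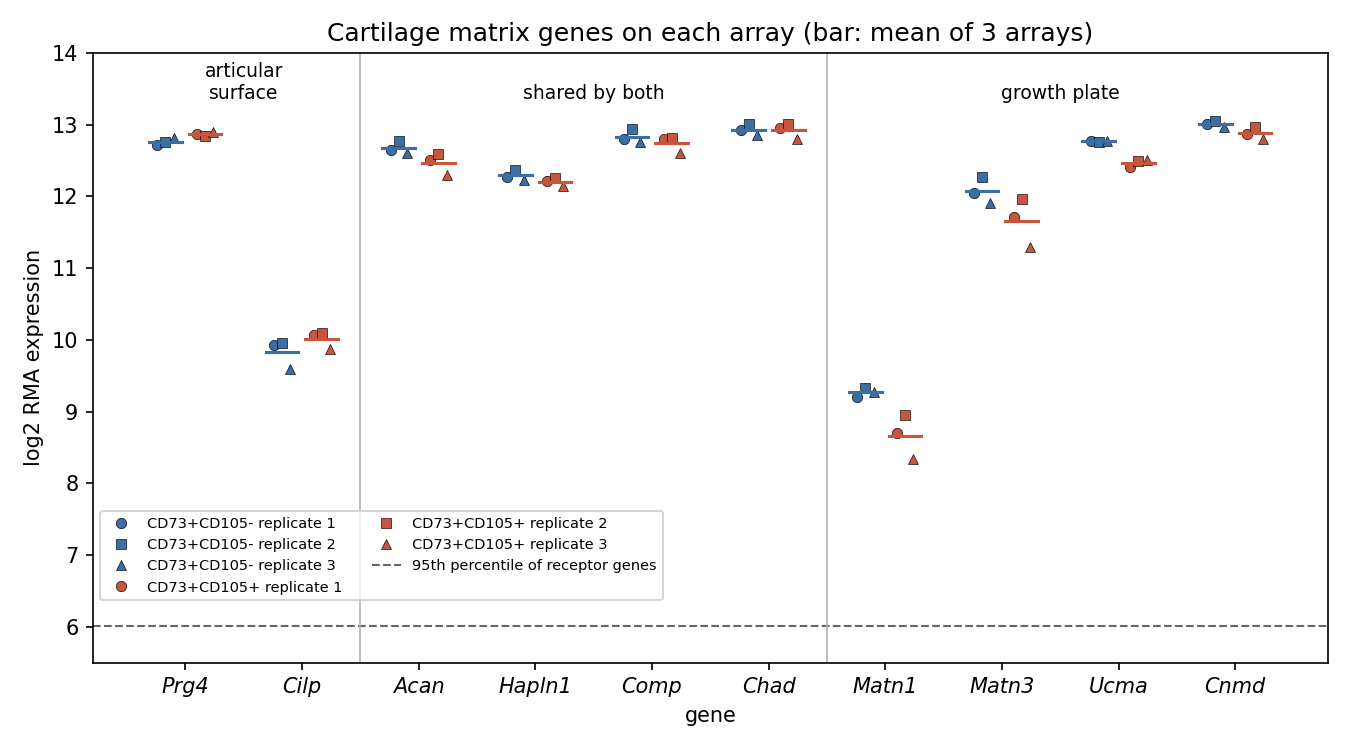
Log2 RMA expression of the 10 genes on each array, with CD73+CD105- samples in blue, CD73+CD105+ samples in red, a bar at each mean of 3 arrays, and the dashed line at the receptor level of 6.01. Matn1 and Matn3 show the widest gaps between group means and, within CD73+CD105+ samples, the widest spread, while Chad lies at nearly the same level in both populations.

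Promoter sequence was available for 8 of the 10 genes, from RefSeq on build GRCm38.p6. The 250 bases before the start are shown for Matn1, whose difference was the lowest, for Chad, whose difference was nearest 0, and for Cilp, whose difference was the highest. Capitals mark a TATA box (TATAAA or TATATAA).
Matn1 (chr4:130944135-130944384, + strand): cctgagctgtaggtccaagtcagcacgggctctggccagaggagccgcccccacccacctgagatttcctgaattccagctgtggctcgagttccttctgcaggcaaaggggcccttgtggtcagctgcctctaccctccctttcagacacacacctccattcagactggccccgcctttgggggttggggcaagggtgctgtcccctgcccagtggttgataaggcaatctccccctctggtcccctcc
Chad (chr11:94564797-94565046, + strand): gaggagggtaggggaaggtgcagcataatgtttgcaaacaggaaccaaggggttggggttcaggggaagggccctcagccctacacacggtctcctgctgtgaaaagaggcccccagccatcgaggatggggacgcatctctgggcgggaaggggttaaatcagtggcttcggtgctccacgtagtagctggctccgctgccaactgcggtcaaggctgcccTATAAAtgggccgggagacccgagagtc
Cilp (chr9:65264930-65265179, + strand): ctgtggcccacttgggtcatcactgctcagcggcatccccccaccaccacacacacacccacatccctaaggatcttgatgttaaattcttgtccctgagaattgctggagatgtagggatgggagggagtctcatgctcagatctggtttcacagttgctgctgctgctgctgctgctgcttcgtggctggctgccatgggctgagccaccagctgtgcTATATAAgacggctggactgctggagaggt
Chad held TATAAA at 28 bases before its start and Cilp TATATAA at 30 bases before its start, both on the strand shown. Matn1 held neither, nor did the other 5 genes searched (Acan, Hapln1, Matn3, Ucma and Cnmd). In 32851 promoter windows of the same length, searched on both strands, TATAAA was found in 12.4% and TATATAA in 3.04%; the second was added after the sequences were read. SOX proteins, a family that includes cartilage transcription factors, bind sequences such as AACAAT and ACAAAG. Neither was found in these windows of the 8 genes, against 9.42% and 16.5% of all windows, which says only that these letters are not in these 250 bases. GC content was 62% for Matn1, 60.4% for Chad and 56% for Cilp, with a median of 52.4% over all windows.

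Set against each other, articular and growth plate genes had mean differences of opposite sign, though the intervals of both articular genes included 0. Each gene was centred on its mean over the 6 arrays, and the mean of the articular genes minus that of the growth plate genes was taken on each array. This value was -0.21, -0.27 and -0.29 in CD73+CD105- replicates 1 to 3 and 0.27, 0.11 and 0.38 in CD73+CD105+ replicates 1 to 3. The centring makes the group means equal and opposite, so their lying on opposite sides of 0 carries no information. Each sample lay on the side of its group mean. Given the near balance of the replicate 1 arrays, their values are not independent of each other. The difference between the group means was 0.51, made of 0.15 in the articular genes and -0.36 in the growth plate genes. The shared genes gave -0.10. Within the growth plate genes the differences ran from -0.61 (Matn1) to -0.13 (Cnmd). Cnmd, Ucma and Prg4 are bright, and how fully such signals follow RNA amounts was not tested. The difference between the group means lay between 0.447 and 0.583 when each array was left out in turn. It is a description with no test, since the genes were chosen with earlier results of these data known.

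The arrays of a group also differed from each other in one pattern across most of the 10 genes. Replicate 2 was the highest array of its group for 8 genes, the same 8 in each population, namely all but Ucma and Prg4. Replicate 3 was the lowest for 7 genes of the CD73+CD105- group and for 8 of the other group, with 7 shared. Of 8 cartilage collagens, 7 had their highest array at replicate 2 and 7 their lowest at replicate 3 in both groups. The share of all genes with such an order was not counted. The near balance of the replicate 1 arrays sets their deviations in the populations against each other (correlation -0.883). An extreme shared by both populations therefore falls mostly on replicate 2 or 3. Prg4 was highest in replicate 3 in both populations, and Ucma was highest in replicate 3 in CD73+CD105+ cells only. The spread within CD73+CD105+ samples in the growth plate genes, from -0.37 in replicate 3 to -0.0086 in replicate 2 on the centred scale, was of the size of the difference between the groups.

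**Figure D4:**
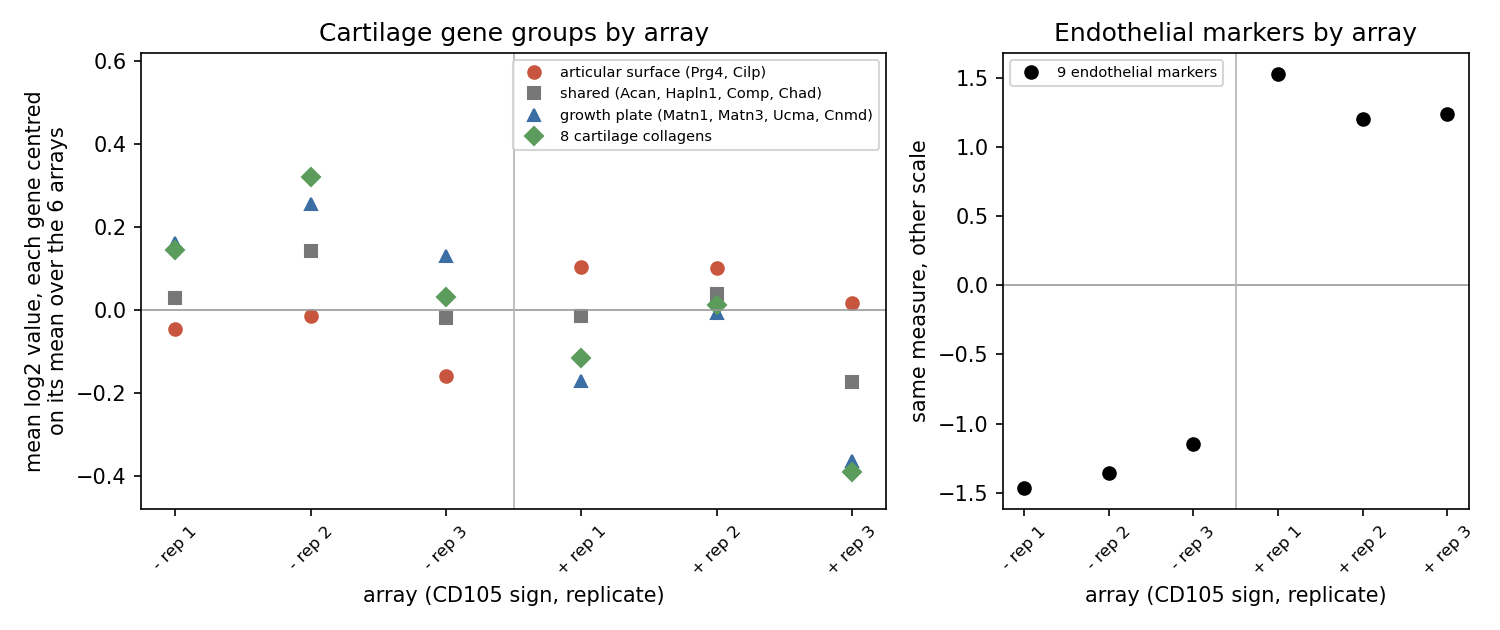
Left, mean centred log2 value of the articular, shared and growth plate genes and of 8 cartilage collagens on each array; right, the same measure for 9 endothelial markers on a wider scale. Articular genes lie below 0 in all CD73+CD105- samples and above 0 in all CD73+CD105+ samples, growth plate genes the reverse, and the endothelial markers move by more than either. Centring each gene sets the group means on opposite sides of 0.

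Among themselves the 10 genes differed in how close their profiles lay. The root mean square difference between centred profiles over the 6 arrays was smallest for Hapln1 and Cnmd (0.0329 log2) and for Hapln1 and Comp (0.0402), and largest for Matn1 and Cilp (0.427) and for Matn1 and Prg4 (0.408). This distance depends on the size of a profile's changes as well as on their direction. Profiles with small changes, such as those of Hapln1, Cnmd and Comp, are therefore close by construction. Matn1, which had the largest difference of the 10 genes, lies far from such profiles. Outside the 10 genes, and among 12085 named genes with a mean above the receptor level, the profiles nearest to Acan were those of Micall2 (0.0252), Col2a1 (0.0254), the main cartilage collagen, and Thbs1 (0.0258), a thrombospondin, against a median of 0.189 over the genes searched. Nearest to Prg4 were Wnk1 (0.013), a kinase, Capza1 (0.0173), an actin-capping subunit, and Psmc5 (0.018), a proteasome subunit, against a median of 0.148. Wnk1 has another, dimmer probe set with a difference of -0.46, against 0.10 in the one used. The Prg4 profile was nearly flat, so other flat profiles lie near it by construction.

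Most other genes of cartilage shared the side of 0 of the growth plate genes, though not equally in every list. Of 37 measured cartilage genes in 4 lists (collagens, other matrix and secreted proteins, transcription factors, and growth plate signals with hypertrophic genes), 0 were higher and 1 was lower past the threshold. Differences were below 0 for 30 of them (81.1%), and the median was -0.23. For comparison with these lists and those below, 55.6% of all genes had differences below 0. Over all genes 1.82% passed the threshold and 17.7% had an unadjusted p under 0.05 in limma. All 8 cartilage collagens had differences below 0 (median -0.33) and 0 passed in limma, with 7 at an unadjusted p under 0.05. Col9a2 and Col11a2, fibril-associated and fibril-forming chains, differed by -0.49 (adjusted p = 0.236) and -0.43 (0.171). Among 14 other cartilage matrix and secreted proteins 0 passed, 3 had an unadjusted p under 0.05 in limma, and the median was -0.060. In this list 9 genes (64.3%) had differences below 0, close to the share over all genes. Hapln3, a relative of the link protein, differed by -0.61 (limma adjusted p = 0.050, at the threshold but not under it, and 0.0156 to 0.382 over the alternatives), and Vcan, the proteoglycan versican of looser connective tissue, by 0.49 (0.381).

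Of 8 chondrocyte transcription factors 1 fell, Sox6, a partner of SOX9 in cartilage gene activation. Its level was 9.06 ± 0.056 (SD, n = 3) in CD73+CD105- cells against 8.50 ± 0.14 (SD, n = 3), a difference of -0.56 (SE 0.087, limma adjusted p = 0.0304). Sox6 lost the call with the batch term (adjusted p = 0.10), in replicates 2 and 3 alone (0.347) and without any 1 of CD73+CD105- replicates 1, 2 or 3 or CD73+CD105+ replicates 1 or 3 (0.0553 to 0.130). Runx3 differed by -0.76 (adjusted p = 0.0532) and Sox5 by -0.64 (0.0756), and all 8 differences were below 0 (median -0.46). Of 7 measured growth plate signal and hypertrophic genes 0 passed, 2 had an unadjusted p under 0.05 in limma, and the median was -0.11. The collagenase gene Mmp13 differed by 0.40 (adjusted p = 0.0516) and the growth factor receptor gene Fgfr3 by -0.35 (0.193).

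The lists for aggrecan breakdown and for joint and tendon surfaces had medians above 0, with 1 of their 25 genes past the threshold. All 7 genes for aggrecan-degrading proteases and the inhibitor TIMP3 had differences above 0 (median 0.30), 0 passed in limma and 4 had an unadjusted p under 0.05. Adamts9 differed by 0.84 (adjusted p = 0.187, and 0.0462 to 0.659 over the alternatives; 0.44 in replicates 2 and 3 alone, and 0.31 to 1.43 over its 6 probe sets) and Mmp3, stromelysin, by 0.47 (0.127). Of 9 superficial zone and joint genes 0 passed, 4 had an unadjusted p under 0.05 in limma 6 were above 0 and 3 below (median 0.23), with the matrix protein gene Thbs4 at 0.33 (0.0988) and Abi3bp at 0.26 (0.211). Of 9 synovial lining and tendon genes 1 rose, Clic5, a chloride channel family protein, by 0.96 (SE 0.16, adjusted p = 0.0382). Clic5 also lost its call with the batch term (adjusted p = 0.0963), in replicates 2 and 3 alone (0.357) and without any 1 of CD73+CD105- replicates 1 or 2 or CD73+CD105+ replicates 1 or 3 (0.112 to 0.131). Tnmd, the tendon relative of Cnmd, differed by 0.58 (0.283), 7 of the list were above 0 and 2 below, and its median was 0.40.

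**Figure D5:**
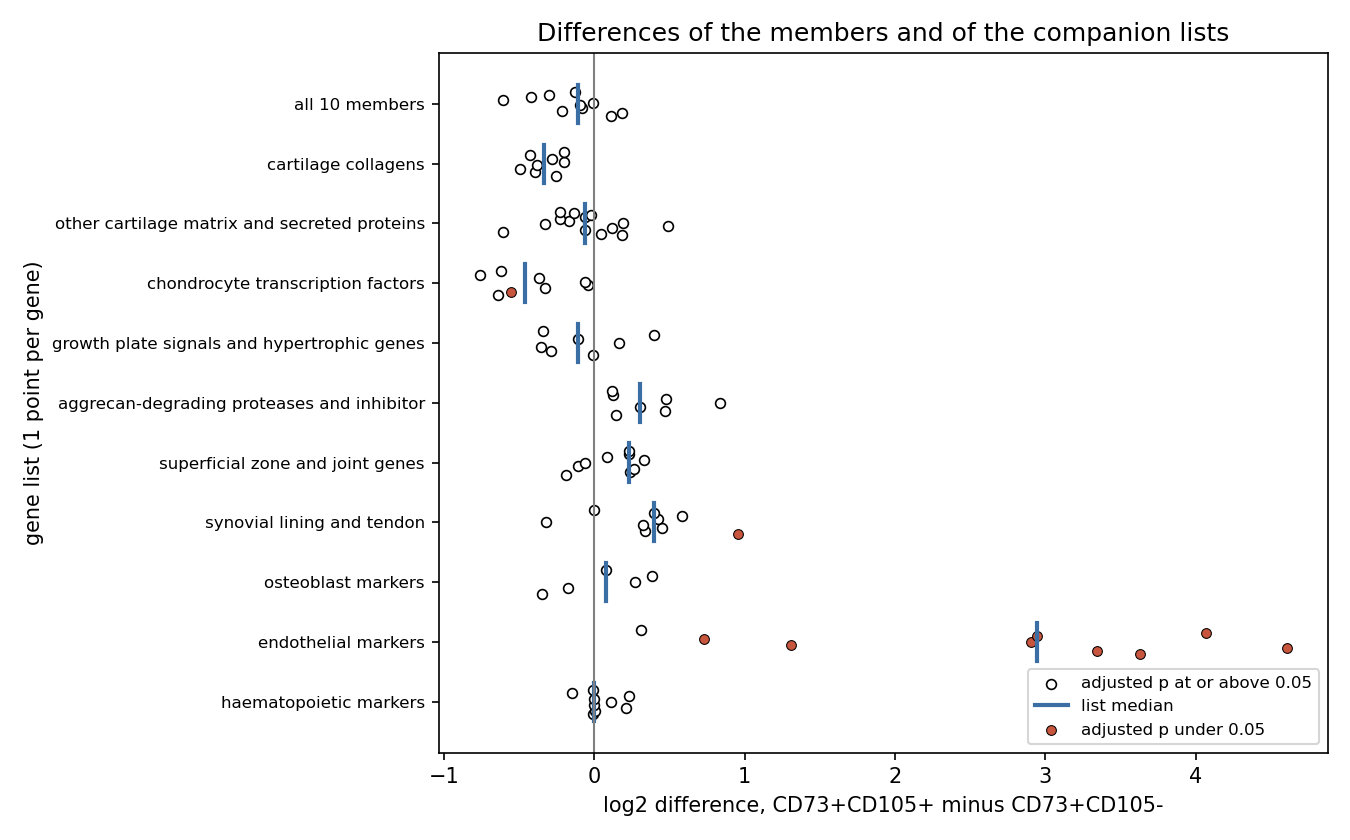
Log2 difference between CD73+CD105+ and CD73+CD105- samples for the 10 genes and for each companion list, 1 point per gene, with filled points at an adjusted p under 0.05 and a bar at the list median. Cartilage collagens and transcription factors lie below 0, protease, joint and tendon lists mostly above, and the endothelial markers far above.

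Among the marker lists for other cells, the endothelial markers moved with the same contrast, while 0 osteoblast and 0 haematopoietic markers passed. Of 9 endothelial markers 8 rose (6 with the batch term), among them Pecam1 (12.4-fold), Cdh5 (10.1-fold), Ptprb (7.69-fold) and Adgrl4 (16.8-fold). In CD73+CD105- samples Pecam1 (5.69), Ptprb (5.71) and Adgrl4 (4.51) lay below the receptor level and Cdh5 (6.16) just above it. These folds therefore start from signals near or below that level. The summed linear signal of the 9 ran from 446 to 534 over the CD73+CD105- samples and from 3091 to 4122 in CD73+CD105+ samples. The summed signal of 9 chondrocyte markers (6 cartilage collagens and Sox5, Sox6 and Sox9) ran from 15565 to 18769 and from 11349 to 14783, and all 9 had differences below 0 with an unadjusted p under 0.05 in limma, Sox6 alone passing. The part of these cells in the differences of the 10 genes was not tested. Of 5 measured osteoblast markers 0 passed (2 with an unadjusted p under 0.05 in limma), with Ifitm5 at 0.39 and Sp7 at -0.35. Of 9 haematopoietic markers 0 passed (1 with an unadjusted p under 0.05 in limma) and 8 lay below the receptor level in both populations. Of the 9, 5 had differences above 0 and 4 below (median 0.00049). The largest were those of Pf4 (0.23) and Cd79a (0.21), both below the receptor level in both populations. Of the genes for the sorted surface proteins, Eng (CD105) rose 3.38-fold (adjusted p = 0.00322), Nt5e (CD73) differed by -0.26 (0.183) and Ptprc (CD45) by -0.0099 (0.96), with a sign that changed in other settings.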

How the data were processed

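Sorted CD73+CD105- and CD73+CD105+ mouse bone marrow cells were measured on 1-colour arrays, 1 array per sample, and groups and replicate numbers follow their titles. The authors deposited log2 expression values per probe set, computed with RMA (background correction, quantile normalization and probe summary), per the submitters' processing notes; its version, annotation and build were not given in the sources used here. Array medians lay between 6.27 and 6.35 over 35556 probe sets, and 6 arrays limit the precision (median SE of a difference 0.0928). Of the probe sets, 21789 had 1 symbol in the platform annotation, 1621 several and 12146 none, and the brightest per gene was kept. Differences were tested with limma 3.58.1 in R 4.3.3 (lmFit, eBayes, two-sided, no block), tested on simulated data first, with Benjamini-Hochberg adjustment over 19938 genes and a threshold of 0.05. The 10 genes, their division and the companion lists (92 genes, 87 measured) were chosen with earlier results of these data known. Named were all 10 genes, the sort markers, from each list up to 4 genes past the threshold or, with fewer than 2, also the 2 largest differences, and the 3 profiles nearest to Acan and to Prg4. Alternatives were the replicate block, a batch term or omission of replicate 1, other scaling, array weights, a variance trend, a filter on dim genes, averaged probe sets and leaving out each array.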

Additional observations from a re-analysis of the deposited data

How the results depend on the processing

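Of the 10 genes, 0 passed under the replicate block, the batch term for the replicate 1 arrays, replicates 2 and 3 alone, both other scalings, the filter on dim genes and averaged probe sets, 2 passed with array weights (Matn1 and Ucma), 1 with a variance trend (Ucma), and 0 to 1 when each array was left out (Matn1 without CD73+CD105+ replicate 2). Over all genes the count of 363 became 215 with the replicate block, 101 with the batch term, 29 in replicates 2 and 3 alone, 1331 with array weights, and 86 to 293 with 1 array left out. The 11 calls in the companion lists became 7 with the batch term, 6 in replicates 2 and 3 alone, 20 with array weights, and 7 to 12 with 1 array left out. The median percentile of the 10 genes was 99.5 when only genes above the receptor level were ranked. Signs turned for Chad (0.00536 after quantile normalization, and -0.057 to 0.0503 with 1 array left out), for Ptprc (0.0327 in replicates 2 and 3 alone, 0.0146 after quantile normalization, and -0.0427 to 0.0151 with 1 array left out) and for Wnk1 (-0.183 with averaged probe sets, since its dimmer probe set has the opposite sign). Otherwise the cause of these changes was not tested. No label says that replicate numbers pair samples, and deviations of same-numbered samples correlated at -0.883, 0.00659 and 0.104. The first of these values follows from the near balance of the replicate 1 arrays and says nothing about pairing. With the replicate block the smallest adjusted p of the 10 genes was 0.117; in the companion lists the block ended the calls of Sox6 (0.0628) and of the endothelial Tie1 (0.0516; named after its values were seen) and added Hapln3 (0.0466). Without scanner files no detection calls were used.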
